A study of Caenorhabditis elegans with 4 samples.

Results

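MRE-11 peaks were examined in the chromosome IV regions taken here as the piRNA gene clusters of Caenorhabditis elegans. Members were all peaks of the series-level list on IV whose midpoint lay from 4.5 to 7 Mb (IV:4500000-7000000, the left domain) or from 13.5 to 17.2 Mb (IV:13500000-17200000, the right domain). This rule used position alone and no score. It gave 345 of the 6864 peaks of the list (5.03%), 161 in the left and 184 in the right domain, while the rest of IV held 912. The study profiled MRE-11 by chromatin immunoprecipitation and sequencing (ChIP-seq) with a rabbit polyclonal antibody in hermaphrodites carrying fem-2(b245) on III, grown at 20 °C, staged as young adults with a germline, although the growth protocol speaks of gravid adults. It comprised 4 samples, of which 2 were ChIP replicates and 2 were input chromatin. All 4 carried the mutation, so no wild-type worms were compared. Whole animals were used, so germline and somatic chromatin could not be told apart.

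MRE-11 is the nuclease of a complex with RAD-50 that opens and trims the ends of DNA double-strand breaks, including those made on purpose in meiosis. The piRNAs of the worm, called 21U-RNAs, are short RNAs bound by the Argonaute protein PRG-1, and they silence transposons and other foreign sequences in the germline. Most are made from large numbers of separate short genes, many with a shared upstream motif, that are packed into broad regions of IV between and within ordinary genes. In the gene table at hand, which is for the assembly WBcel235, 14714 of 15363 annotated piRNA genes (95.8%) are on IV, while each other nuclear chromosome has from 78 (III) to 202 (V). That assembly differs from the WS220 build of the peak lists, so no peak was matched to a piRNA gene and the domains rest on their borders alone.

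Of the 3 deposited peak lists, 1 covers the whole series and 1 each ChIP replicate. Replicate 1 had 1579 peaks with a median width of 1448 bp and replicate 2 had 4403 with a median of 376 bp, so a level was compared between regions only within a list. The lists hold no read counts, and the depth behind each value is unknown. Intervals below are 95% exact binomial intervals and cover counting error only, because neighbouring peaks are not independent. With 2 replicates an exact two-sided sign-flip test cannot go below p = 0.5, so each difference between the domains and other parts of IV is given as a description, and none was tested.

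The piRNA domains held fewer series-level peaks per length than the rest of IV. They make up 35.4% of IV and held 55.6 peaks per Mb, against 80.8 per Mb in the rest, a ratio of 0.69 (interval 0.61 to 0.78). The replicate lists gave the same direction with a smaller gap. Replicate 1 had 104 peaks in the domains, or 16.8 per Mb, and 218 in the rest, or 19.3 per Mb, a ratio of 0.87 (0.68 to 1.10). Replicate 2 had 269 peaks there, or 43.4 per Mb, and 574 in the rest, or 50.8 per Mb, a ratio of 0.85 (0.74 to 0.99). The mean ratio of the replicates was 0.86 ± 0.01 (SD, n = 2), and the series-level ratio lay below both.

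The rest of IV was itself uneven, with dense peaks at its left end. From its first base to the left domain, a segment of 4.5 Mb, IV held 105 series-level peaks per Mb. The segment between the domains, 6.5 Mb long, held 65.8, close to the 64.4 of the left domain. The right domain had the lower value, at 49.7 per Mb, and the 10 peaks of the short end beyond it gave 34.0. Against the middle segment alone, the left domain had 0.98 times the density (0.81 to 1.18), with 0.93 in replicate 1 and 0.99 in replicate 2, and the right domain 0.76 times (0.63 to 0.90). In replicate 1 the right domain was above the middle segment (18.4 and 15.5 per Mb, ratio 1.18, 0.86 to 1.62), and in replicate 2 it was below it (40.8 and 47.8 per Mb, ratio 0.85, 0.70 to 1.04). The replicates therefore differed in direction there. Against the left segment the right domain was lower in all 3 lists (ratios 0.47, 0.72 and 0.72).

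**Figure D1:**
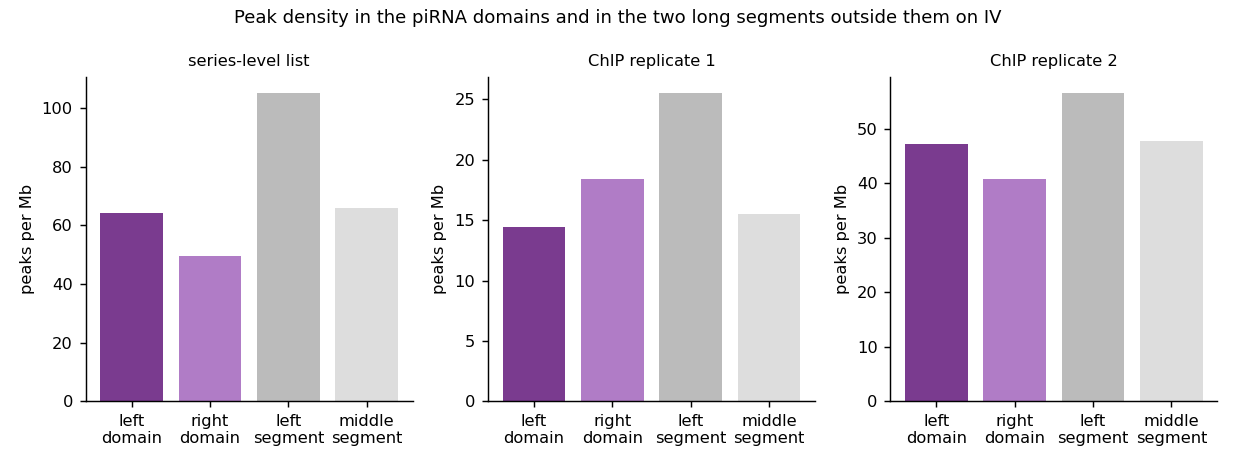
Peaks per Mb (vertical axis) in the left and right piRNA domains and in the left and middle segments of IV outside them, with 1 panel for each list and a separate scale in each. In every panel the tallest bar is the left segment, at 105, 25.6 and 56.7 peaks per Mb, while the order of the right domain and the middle segment differs between the replicates.

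Each domain was also set against the stretch of IV at the same distance from the opposite chromosome end, since peak density varied along IV. The left domain and its mirror, IV:10493817-12993817, held 161 and 173 series-level peaks, a ratio of 0.93 (0.75 to 1.16), with 0.84 in replicate 1 and 0.91 in replicate 2. The right domain and its mirror on the left arm, IV:293817-3993817, held 184 and 414, a ratio of 0.44 (0.37 to 0.53). In the replicates this last ratio was 0.68 (0.49 to 0.93) and 0.75 (0.60 to 0.93). By covered bases it was 0.73 in replicate 1 but 1.11 in replicate 2, so the lower number of peaks on the right arm was not matched by fewer covered bases in both replicates. On the other chromosomes, a stretch at the same relative position as the right domain had a series-level density from 0.74 (III) to 1.68 (V) times that of the chromosome outside both stretches, where IV had 0.62. In replicate 1 IV had 0.95, inside the range of the others (0.62 on III to 2.34 on V), and in replicate 2 it had 0.80, beside 0.82 (I) to 1.303 (V). The stretch placed like the left domain ranged from 0.53 (X) to 1.15 (V), with 0.80 on IV. These ranges are given as values, and no test compared IV with the others.

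Peaks inside the domains were unevenly spread. In windows of 100 kb the left domain had a median of 5 series-level peaks, none of its 25 windows was empty, and 6 windows with 10 or more peaks held 48.4% of its peaks. In the right domain the median was 4 of up to 15 peaks, 3 of 37 windows were empty, and 6 windows with 10 or more peaks held 39.1%. Outside the domains, the middle segment had a median of 6 of up to 19 peaks, with 2 of 64 windows empty. The left segment had a median of 9 of up to 39, with 2 of 44 empty. Uneven spread was thus not particular to the domains. The longest stretch with no peak was 169 kb in the right domain and 136 kb in the left domain. It was 204 kb in the left segment and 117 kb in the middle segment. Window counts of the series-level list followed those of replicate 2 (Spearman rho 0.84 over 25 windows on the left, 0.87 over 37 on the right) more closely than those of replicate 1 (0.53 and 0.75). Counts of the replicates had a rho of 0.46 on the left and 0.78 on the right. These values describe windows that share libraries and are not independent.

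**Figure D2:**
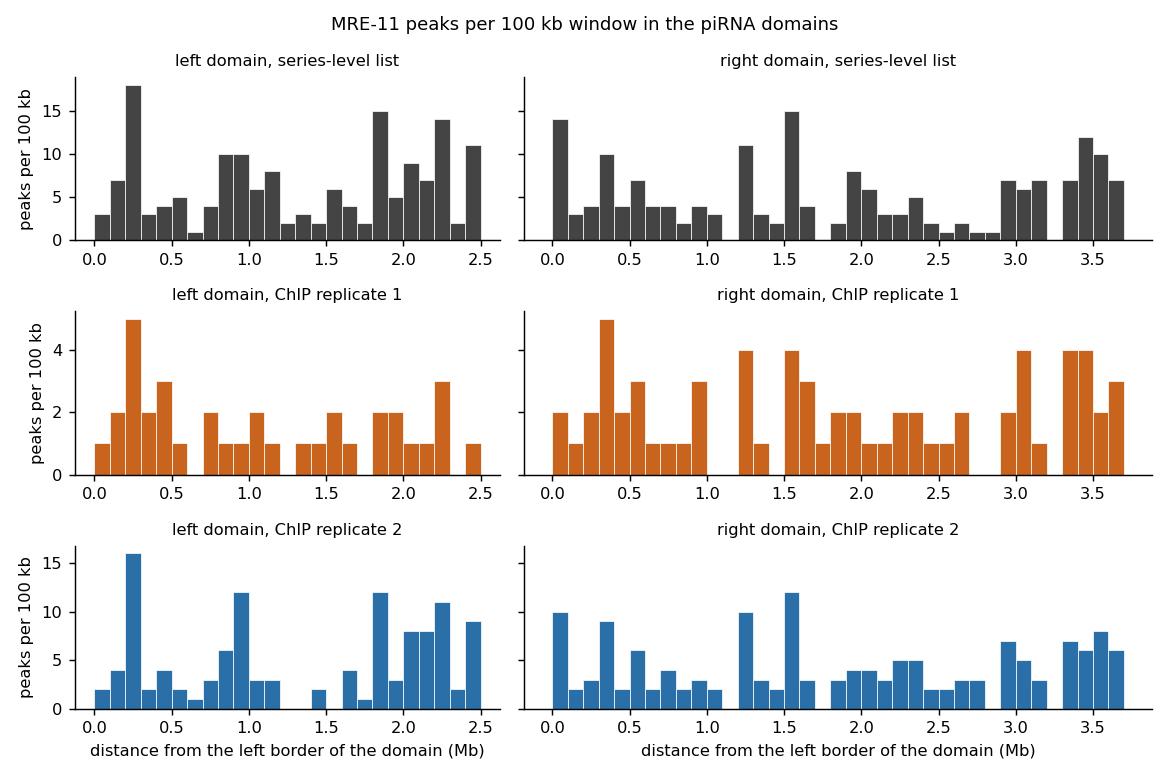
Peaks per 100 kb window (vertical axis) against the distance from the left border of each domain in Mb (horizontal axis), in the series-level list, ChIP replicate 1 and ChIP replicate 2. The tallest series-level bars, 18 peaks on the left and 15 on the right, are also the tallest of replicate 2, at 16 and 12.

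The densest window of the left domain was IV:4700000-4799999, with 18 series-level peaks, 5 of replicate 1 and 16 of replicate 2. Its series-level peaks ranged in score from 2.72 to 124.49, and 4 of them were among the 100 highest of the list. Of the 18, 5 overlapped both replicates, 9 replicate 2 only and 4 neither. The densest window of the right domain, IV:15000000-15099999, had 15 series-level peaks, 4 of replicate 1 and 12 of replicate 2, with scores from 2.55 to 76.92 and none among the 100 highest. Both dense windows thus mixed strong and weak peaks. Neighbouring peaks were often close. In the left domain 49.1% of peaks lay in runs in which the gap to the next peak was under 2 kb, in the right domain 60.9%, in the left segment outside 65.4% and in the middle segment 54.9%. The longest run of the left domain was IV:6711858-6719190, with 6 peaks of low score (2.50 to 5.79), 2 of which overlapped both replicates. In the right domain it was IV:13508787-13512615, just inside the border, with 5 peaks scoring 2.85 to 40.55. The left segment held a run of 14.

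Score is the peak caller's own value, with no unit named, and was used here as a rank within its list. Series-level peaks of the domains ranked slightly above those of the rest, with a median score percentile of 52.9 (interval of the median 48.2 to 59.8) against 45.9 (42.1 to 49.2). The right domain stood above and the left domain did not. Its median percentile was 60.1 (52.9 to 71.8), while the left domain had 46.4 (36.9 to 52.2), the middle segment 54.6 and the left segment 38.7. In replicate 1 the medians were 44.8 in the left domain, 58.8 in the right and 47.2 in the rest, and in replicate 2 they were 50.3, 60.0 and 48.4. The right domain was highest of the 3 in every list, and the left domain lay close to the rest. The middle segment had 49.3 in replicate 1 and 53.4 in replicate 2, below the right domain. Its interval overlapped that of the right domain in every list, at 49.6 to 60.4 in the series-level list.

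The share of strong peaks showed the same split. Of the right domain peaks 20.1% (14.6 to 26.6) belonged to the top 10% of that list by score, against 9.32% (5.31 to 14.9) in the left domain and 9.43% (7.61 to 11.5) in the rest of IV. Within the rest, the middle segment had 13.6% (10.5 to 17.2), an interval that overlaps that of the right domain, and the left segment 5.27%. In replicate 1 the share was 11.8% in the right domain (8 of 68 peaks), 4.59% in the rest and 0% in the left domain (0 of 36 peaks, which allows up to 9.74% by the exact interval). In replicate 2 the shares were 15.9%, 9.41% and 7.63%. The middle segment had 6.93% in replicate 1 and 10.9% in replicate 2. Per length, the domains together held 8.39 peaks of the highest 10% per Mb in the series-level list and the rest of IV 7.61, with 1.29 and 0.89 in replicate 1 and 5.32 and 4.78 in replicate 2, but this rests on the right domain. The middle segment alone held 8.92 per Mb in the series-level list, more than the domains. It held 1.08 in replicate 1 and 5.23 in replicate 2, and the left segment 5.56 in the series-level list. The left domain held fewer such peaks per Mb than the rest in each list, at 6.0, 0 and 3.6. Among the 200 highest series-level peaks the domains together had 2.10 per Mb and the rest 2.21.

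Counted together, the domains had their lowest density relative to the rest among weak peaks, a pattern of the right domain more than of the left. The rest includes the left segment, with 105 series-level peaks per Mb at a median percentile of 38.7. Its middle segment had 65.8 per Mb at 54.6. The score groups were not compared with the middle segment alone, so the ratios below hold for the pooled rest only. With the series-level list divided into 5 groups by score, the domains had 0.54 times the density of the rest in the lowest group (65 and 221 peaks, interval 0.40 to 0.71) and 0.98 times in the highest (90 and 167 peaks, 0.75 to 1.28). The ratios between were 0.62, 0.69 and 0.68. In replicate 1 the ratio was 0.71 in the lowest group (0.39 to 1.25) and 1.10 in the highest (0.60 to 1.98), and in replicate 2 it was 0.73 (0.51 to 1.02) and 1.17 (0.85 to 1.59). In both replicates the highest group had the higher ratio, and the intervals of lowest and highest overlapped. The right domain had the wider spread. Its series-level ratio was 0.43 in the lowest group and 1.06 in the highest, with 0.60 and 1.57 in replicate 1 and 0.60 and 1.32 in replicate 2. The left domain showed no such order across lists. For its lowest and highest groups the series-level ratios were 0.70 and 0.87, with 0.88 and 0.41 in replicate 1, where the latter rests on 3 peaks, and 0.92 and 0.95 in replicate 2.

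**Figure D3:**
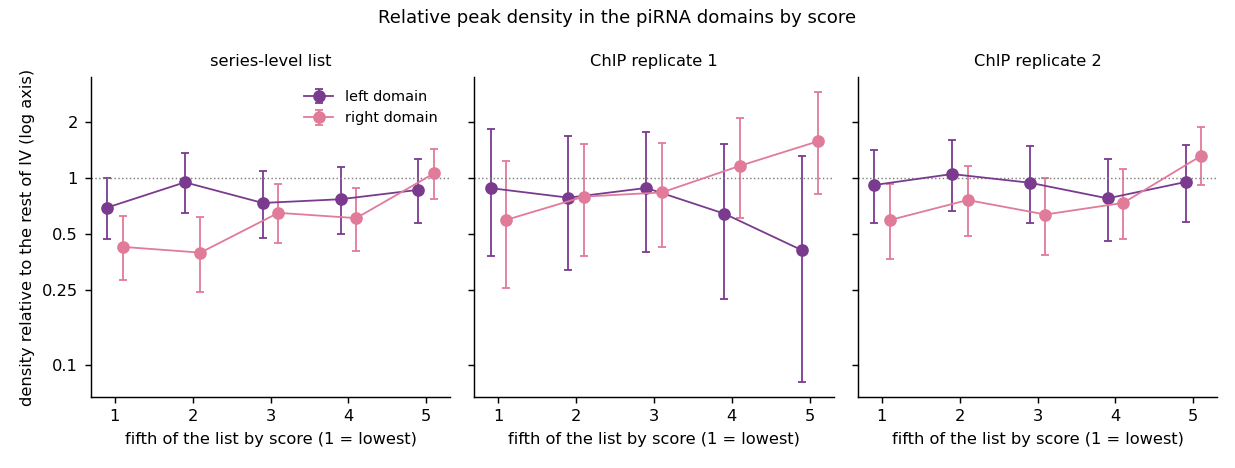
Peak density of each piRNA domain relative to the rest of IV (vertical axis, log scale) for the 5 groups of each list by score (horizontal axis, 1 is the lowest), with 95% exact binomial intervals as bars and a dotted line at equal density. In the right domain the ratio is 0.43, 0.60 and 0.60 in the lowest group of the 3 lists and 1.06, 1.57 and 1.32 in the highest. The rest of IV includes the dense left segment, whose peaks ranked low.

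Series-level peaks of the right domain also had the highest median width of these regions. The median width of series-level peaks was 327 bp in the right domain (interval of the median 294 to 398), 283 bp in the left (246 to 318), 286 bp in the middle segment (263 to 303) and 257 bp in the left segment (239 to 274). Of the right domain peaks 22 of 184 (12.0%, 7.65 to 17.5) reached 1000 bp, against 10 of 161 on the left (6.21%, 3.02 to 11.1) and 52 of 912 in the rest of IV (5.70%, 4.29 to 7.41). The middle segment had 32 of 428 (7.48%, 5.17 to 10.4), an interval that overlaps that of the right domain. In replicate 2 the shares were 11.3% on the right, 5.93% on the left, 7.84% in the rest and 10.9% in its middle segment, and in replicate 1 nearly all peaks of each region reached that width. The replicates gave smaller gaps, at a median of 1469 bp in the right domain, 1416 bp in the left and 1419 bp in the rest in replicate 1, and 415, 402 and 368 bp in replicate 2. The middle segment had 1418 bp in replicate 1 and 390 bp in replicate 2. In replicate 2 its interval (367 to 422) overlapped that of the right domain (373 to 453). Width and score went together across peaks, with a Spearman rho of 0.70 over the 345 domain peaks and 0.60 over the 912 of the rest, so the differences in width and in rank are not separate observations. Peaks covered 2.59% of the length of the domains and 3.29% of the rest, a ratio of 0.79, which is nearer to 1 than the ratio of peak numbers, and the replicates gave 0.89 and 0.92.

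**Figure D4:**
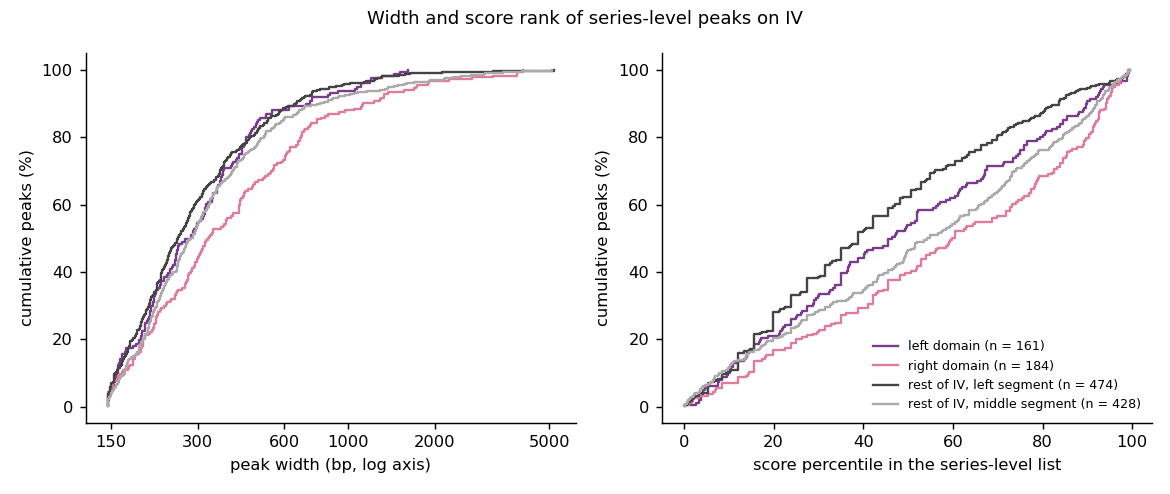
Cumulative share of series-level peaks (vertical axes, %) against peak width in bp (left, log axis) and score percentile (right) for both piRNA domains and the left and middle segments of IV outside them. The right domain curve lies to the right of the others over most of both panels, with medians of 327 bp and percentile 60.1, and the left segment has the lowest medians, 257 bp and 38.7.

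Peaks of the domains had a replicate partner more often than other peaks of IV taken as a whole, but not more often than those of the middle segment in every class. An overlap of at least 1 bp with replicate 1 was found for 140 of 345 domain peaks (40.6%, 35.4 to 46.0), against 35.3% in the rest of IV (32.2 to 38.5) and 37.6% in the whole list. With replicate 2 the overlap was 239 of 345 (69.3%, 64.1 to 74.1), against 57.5% in the rest (54.2 to 60.7) and 58.8% in the whole list. In all, 117 domain peaks overlapped both replicates (33.9%, 28.9 to 39.2), where the rest had 23.4% (20.6 to 26.2) and the whole list 23.2%. No overlap with either replicate was found for 83 (24.1%, 19.6 to 28.9), against 30.6% in the rest and 26.8% in the whole list. The sources do not say if the same reads lie behind the series-level and replicate calls, so these overlaps are not independent checks of a peak. For replicate 2 and for no overlap the domains were close to the middle segment (68.5% and 25.2%), and the left segment (47.3% and 35.4%) set much of their distance from the rest. The middle segment had 32.5% (28.1 to 37.1) for replicate 1 and 26.2% (22.1 to 30.6) for both replicates. These lay below the values of the domains, with overlapping intervals.

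The domains differed from each other mainly in replicate 1. Its peaks were met by 93 of 184 right domain peaks (50.5%, 43.1 to 58.0) but by 47 of 161 left domain peaks (29.2%, 22.3 to 36.9). For replicate 2 the shares were 71.7% (64.6 to 78.1) on the right and 66.5% (58.6 to 73.7) on the left, near the 68.5% of the middle segment and above the 47.3% of the left segment. Peaks in both replicates made up 42.4% of the right domain (35.2 to 49.9) and 24.2% of the left (17.8 to 31.6). The left domain was thus close to the whole list and to the middle segment (26.2%) in this class. For replicate 1 the middle segment had 32.5%. In the right domain 15 peaks overlapped replicate 1 and not replicate 2 (8.15%), and in the left domain 8 (4.97%), against 6.31% in the middle segment, 17.3% in the left segment and 14.4% in the whole list.

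**Figure D5:**
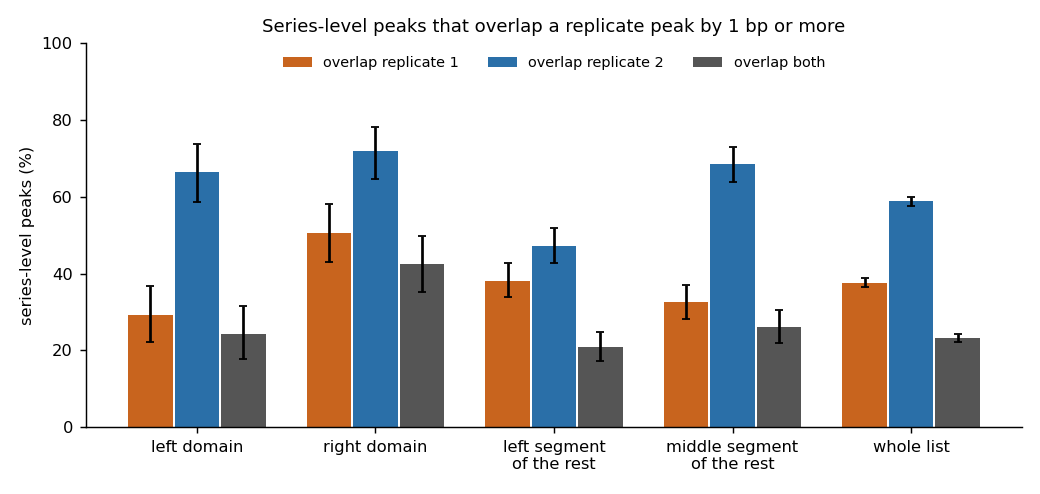
Share of series-level peaks (vertical axis, %) that overlap a peak of ChIP replicate 1, of ChIP replicate 2 or of both by at least 1 bp, in the piRNA domains, in the left and middle segments of IV outside them and in the whole list, with 95% exact binomial intervals. The right domain has the highest share in both replicates, 42.4%, against 24.2% in the left domain and 23.2% in the whole list.

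Overlap was far more frequent at high than at low scores, so it was also compared at like scores. The pooled rest includes the left segment, where 47.3% of peaks overlapped replicate 2, against 68.5% in the middle segment. The middle segment was not taken alone at like scores or widths, so the values below hold for the pooled rest only. Among series-level peaks in the highest of the 5 score groups, 80.0% of 90 domain peaks (70.2 to 87.7) overlapped both replicates and 73.1% of 167 peaks in the rest (65.7 to 79.6). In the lowest group the shares were 9.23% of 65 (3.46 to 19.0) and 4.52% of 221 (2.19 to 8.16). The domains were above the rest in all 5 groups, at 8.33% and 5.68%, 19.4% and 12.9%, and 33.3% and 28.2% in the groups between, but the intervals overlapped in each. For replicate 1 alone the domains were below the rest in the 3 lower groups (13.8% and 19.5%, 23.3% and 24.4%, 31.3% and 33.1%) and above it in the upper ones (38.1% and 31.8%, 80.0% and 73.7%). Within the highest group the right domain had 86.2% of 58 (74.6 to 93.9) and the left 68.8% of 32 (49.99 to 83.9). By width, the gap was widest among peaks over 500 and under 1000 bp, where 36 of 51 domain peaks (70.6%, 56.2 to 82.5) and 60 of 117 in the rest (51.3%, 41.9 to 60.6) overlapped both.

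Seen from the replicate lists, 94 of the 104 replicate 1 peaks in the domains overlapped a replicate 2 peak (90.4%, 83.0 to 95.3). The rest of IV had 76.6% (70.4 to 82.1). Its middle segment had 89.1% and its left segment 65.2%, so the domains were like the middle segment in this respect. Of the 269 replicate 2 peaks in the domains 47.6% overlapped replicate 1 (41.5 to 53.7), with 57.0% on the right (48.7 to 65.0), 35.6% on the left (27.0 to 44.9) and 40.1% in the rest (36.0 to 44.2). A series-level partner was found for 101 of the 104 replicate 1 peaks (97.1%) and 245 of the 269 replicate 2 peaks (91.1%) of the domains, near the shares over the whole replicate lists (97.6% and 92.9%). A replicate 1 peak met 2 or more series-level peaks in 29.8% of cases in the domains and in 36.7% in the rest, with at most 4 and 8 series-level peaks under it. Over the domain peaks with an overlap, series-level scores had a Spearman rho of 0.82 with the highest overlapping replicate 2 score (239 peaks) and of 0.43 with replicate 1 (140 peaks). In the rest of IV the values were 0.74 (524 peaks) and 0.16 (322 peaks). The middle segment was not taken alone for these rho values, so their contrast holds for the pooled rest only. Several series-level peaks can share a replicate 1 peak, and the values are descriptions.

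Of the 8 strongest peaks of the left domain, 4 lay near its left border. The highest, IV:4727769-4728196, was 428 bp wide with a score of 124.49, rank 56 of the whole list. It overlapped a 1066 bp peak of replicate 1 with score 142.5 (rank 802) and a 546 bp peak of replicate 2 with score 1515.7 (rank 207). Within 8 kb of it were IV:4720229-4720849 (score 102.08, rank 80) and IV:4725410-4725734 (98.92, rank 83), and IV:4749098-4750286 (1189 bp, 107.1, rank 71) followed. These 4 peaks overlapped both replicates. In replicate 1 the overlapping peaks had score percentiles from 27.4 to 74.4, and in replicate 2 the best overlapping peak of each lay from 92.7 to 95.3. The other strong peaks of this domain were IV:6585387-6585751 (109.56, rank 68), IV:6756456-6756775 (73.54, rank 180), IV:5946993-5948062 (61.67, rank 286) and IV:5469746-5470181 (50.28, rank 429). Only the last of the 8 had no replicate 1 overlap.

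The widest peaks of the left domain formed a regular group. IV:4921457-4922903, IV:4923716-4925224 and IV:4926002-4927610 were 1447, 1509 and 1609 bp wide, began 2259 and 2286 bp apart and spanned 6154 bp together. Their series-level scores were close, at 35.49, 36.63 and 32.09 (ranks 740, 715 and 832). In both replicates they were the strongest of the domain. Replicate 1 had peaks of 3052, 2074 and 2186 bp over them with scores of 890.95, 661.87 and 842.3 (ranks 187, 253 and 197), and replicate 2 had peaks of 1565, 1587 and 1596 bp with scores of 1551.24, 1919.63 and 1721.01 (ranks 200, 138 and 171). The order within the domain therefore differed between lists: these wide peaks scored below the 4 peaks near the left border in the series-level list and above them in each replicate.

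In the right domain the strongest peaks were of both narrow and broad form. IV:15471319-15471716 (398 bp) and IV:16845262-16845725 (464 bp) shared the highest score of the domain, 106.61, rank 72. The former lay under a 2025 bp replicate 1 peak of score 321.16 and over a replicate 2 peak of score 818.2, the latter under a 1076 bp peak of score 194.18 and over one of score 1342.19. IV:13881711-13882133 (423 bp, 97.5, rank 91) followed. Next came the broad peaks IV:15188244-15190931 (2688 bp, 85.67, rank 116) and IV:15078455-15082302 (3848 bp, 76.92, rank 154). Both met a peak of score 3100 in each replicate, a value at which many replicate peaks are tied. The former had a peak of 3801 bp in replicate 1 and of 2722 bp in replicate 2. The latter lay under a peak of 6315 bp in replicate 1, the widest of the domain there, and over peaks of 913 and 2850 bp in replicate 2. IV:15530531-15530827 (73.54, rank 180), IV:14776331-14777449 (72.48, rank 190) and IV:14767592-14768013 (70.51, rank 204) completed the 8. Of these IV:15530531-15530827 alone had no replicate 1 overlap.

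The other wide peaks of the right domain were IV:13929243-13933287 (4045 bp, score 35.51, rank 734) and IV:14477170-14481041 (3872 bp, 42.02, rank 568). In replicate 1 they met peaks of 4600 bp (2519.74, rank 63) and 5939 bp (3062.98, rank 44), and in replicate 2 peaks of 3541 and 4855 bp, both at 3100 (rank 7, tied). As in the left domain, the order differed between lists. These broad peaks scored below the narrow pair at 106.61 in the series-level list and above it in each replicate.

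Peaks without replicate overlap were weak in the domains, with a median score of 4.32 among 83, against 28.28 among the 117 found in both replicates, much as in the whole list (4.48 and 26.18). The highest was IV:4653722-4653979 in the left domain (258 bp, score 21.54, rank 1314). The next score was 8.03, shared by IV:14797247-14797574 and IV:16954499-16954792 in the right domain. The peaks nearest each border are listed next, and so few cannot show whether score or density changes there. Just outside the left domain were IV:4470915-4471152 (score 11.42) and IV:4471469-4471680 (4.18), and just inside IV:4513447-4513760 (12.16) and IV:4538707-4538902 (6.76). At its right border the last peaks inside were IV:6977122-6977342 (7.0) and IV:6977556-6977801 (3.13), and the first outside IV:7023073-7023218 (2.94) and IV:7039426-7040024 (59.74). The right domain began with IV:13499947-13500363 (14.32), whose midpoint is just inside, and IV:13503049-13503241 (4.04), after IV:13464299-13464987 (26.06) and IV:13477325-13477502 (2.0) outside. It ended with IV:17140245-17141969 (41.96) and IV:17155185-17155436 (2.30), before IV:17249703-17250035 (79.57) and IV:17268748-17268899 (10.34) outside.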

How the data were processed

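ChIP-seq peak lists were used as deposited. Reads were aligned with BWA to ce10, per the submitters' processing notes. Peaks were called with MACS (replicates) and MACS v2 (series-level list) on WormBase WS220, per the file headers. The deposited score is the authors' peak caller's own value, and each peak has its deposited start and end. The control, the settings and any pooling are not given in the sources used here, and the labels do not say whether replicates were separate cultures.

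The length of IV was taken as the largest peak end, 17493816. A peak belonged to the region holding its midpoint. Ranks and percentiles, with ties at their mid-rank, were taken over each whole list. Intervals are 95% exact (Clopper-Pearson) intervals, turned into density ratios from the share of peaks, and order-statistic intervals for medians. Named peaks were the 8 highest and 3 widest of each domain, the highest without replicate overlap, those at the borders and the densest windows. Members, regions and rules were chosen with earlier results of these data known. Functions were tested on simulated positions. No WS220 sequence was used. Alternatives were score, borders, each domain, covered bases, merged peaks, comparator, overlap rule and replicate. Python 3.11.15, numpy 2.4.6, scipy 1.17.1, pandas 2.3.3 and matplotlib 3.10.9 were used.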

Additional observations from a re-analysis of the deposited data

Results flagged for a closer look

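In both replicates the left and right domain differed in opposite directions from their mirror segments in the rank of their peaks, and from the mirror segments and the rest of IV in the share of strong peaks. This difference between the domains was not tested. Against the rest of IV the median percentile gave no such contrast, since in replicate 2 both domains (50.3 and 60.0) were above it (48.4). Against the mirror segments, the median score percentile of the left domain was lower by 4.46 points in replicate 1 (difference -4.46) and by 1.37 in replicate 2 (-1.37), while that of the right domain was higher by 13.0 and 20.5 points. The left domain and its mirror had overlapping intervals, at 24.8 to 56.1 and 39.6 to 61.3 in replicate 1. In replicate 2 they were 34.1 to 58.0 and 44.7 to 59.8. The mirror of the right domain lies inside the left segment, whose peaks ranked low. The share of peaks among the highest 10% of the list, in percentage points against the rest of IV, differed by -4.59 and -1.78 in the left domain and by 7.18 and 6.49 in the right. Against the mirror segments it differed by -4.65 and -3.14 in the left domain and by 9.76 and 8.96 in the right. The left domain has 36 replicate 1 peaks, 0 of them among the highest 10%, and its mirror has 43, 2 of them among the highest 10%. In replicate 2 the share was 7.63% (3.55 to 14.0) in the left domain. It was 10.8% (6.01 to 17.4) in its mirror and 9.41% (7.15 to 12.1) in the rest, so these intervals overlapped. In the series-level list the left domain (9.32%) was close to the rest (9.43%).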

How the results depend on the processing

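No result here has a p-value, so each alternative was judged by its distance from the main value: 22 of 44 values stayed inside the main interval (for the replicate mean, inside 1 SD), 21 lay outside and 1 crossed equal density, and the causes were not tested. With replicate 1 or 2 left out, the mean density ratio ranged from 0.85 to 0.87. By arithmetic each of 2 replicates lies inside 1 SD of their mean, so counting these as inside does not show stability. The SD of 0.01 also puts most other alternatives of the replicate mean outside, so the count is no measure of robustness. Against the rest of IV without its left segment, a comparator added after the values were known, the density ratio was 0.86 in the series-level list and 1.02 ± 0.13 (SD) as the replicate mean, which crossed 1 from 0.86. Against the middle segment alone, which leaves out the right end too, replicate 1 had 1.08 and replicate 2 had 0.91. Of the replicates, replicate 1 alone crossed 1 against that segment. Their mean against it was 0.99 ± 0.12 (SD), which did not cross 1. Against the mirror segments the ratios were 0.59 and 0.77, by covered bases 0.79 and 0.90, and in the upper 50% of each list by score 0.81 and 0.98. The replicate mean was 0.84 with borders 100 kb further in. For the left domain alone the series-level and mean replicate ratios were 0.80 and 0.84 ± 0.13 (SD), and the mean replicate ratio of the right domain alone was 0.88 ± 0.11 (SD). In the upper 50% by score the median width was 440 bp (366 bp in the rest) and the overlap was 58.9% with replicate 1, 92.4% with replicate 2 and 54.6% with both, against 48.4%, 88.4% and 43.4% in the rest. The left and right domain alone gave median percentiles of 46.4 and 60.1, replicate 1 overlaps of 29.2% and 50.5%, and overlaps with both of 24.2% and 42.4%. Requiring 50% of a peak to be covered, or its midpoint, left every overlap share inside its interval. No paired analysis was possible because only ChIP peak lists were analysed here, and the shared replicate numbers pair ChIP with input. Read depth, which limits how many weak peaks a list can hold, is unknown.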
